A study of Homo sapiens with 4 samples.

Results

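The 10 genes described here encode the subunits of the transcription factor NF-κB (NFKB1, NFKB2, RELA, REL and RELB) and members of the IκB family that bind them (NFKBIA, NFKBIB, NFKBIE, NFKBIZ and BCL3). They were chosen by name, and every peak that the authors' lists assign to one of these symbols was taken. This gave 17 of 24626 peaks in the shALKBH5 list and 15 of 22448 peaks in the shNC list. The peaks came from m6A-seq, which sequences poly(A) RNA pulled down by an antibody to N6-methyladenosine (m6A) together with the RNA before pull-down, called the input. The cells were RPMI-8226, an established human multiple myeloma line, transduced with lentivirus carrying a short hairpin against ALKBH5, which takes m6A off RNA, or the hairpin called shNC. There was 1 immunoprecipitated (IP) and 1 input library per condition, 4 libraries in all, and 1 peak list per condition, so no value below has a replicate and no test between the conditions was made.

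NF-κB works as dimers of Rel-domain proteins. In resting cells IκB proteins hold these dimers in the cytoplasm, and IκB kinase signalling has the inhibitors degraded so that the dimers enter the nucleus. NFKB1 and NFKB2 encode precursors, p105 and p100, that are cut to the DNA-binding subunits p50 and p52, and RELA, REL and RELB encode the subunits that carry activation domains. Plasma cells and many myelomas depend on this pathway for survival, and NFKBIA is a classical feedback target of NF-κB. In mRNA, m6A sits mostly near stop codons and in long exons, and antibodies against it also bind m6Am, a related base next to the cap.

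Each peak has a fold, its enrichment in the IP over the input, and a log10 p, both the authors' own. The authors list each peak as 1 or more blocks, which are separate stretches of the genome. Whether gaps between blocks are splice junctions was not checked. A peak had a partner when its blocks shared 1 base or more with those of any peak in the other list, on either strand. Start peaks are those whose 5′ edge fell before the RefSeq gene start or under 500 bp past it. End peaks are the others whose 3′ edge came within 1000 bp of the RefSeq gene end. Coordinates are on hg38, counted from 1. Exon annotation was not used here, so the peaks are placed by distance along the gene and not by exon or coding region.

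RefSeq promoter windows span 250 bases before to 50 bases after a start site on GRCh38.p14. They were available for 8 of the 10 genes, and not for RELB or NFKBIE. Because 4 of these 8 genes had a peak inside a window, those 4 windows are shown 5′ to 3′ on the gene's strand. Capitals mark the bases covered by a peak of the shALKBH5 list.
NFKB2, start 3 of 3, chr10:102395455-102395754, plus strand: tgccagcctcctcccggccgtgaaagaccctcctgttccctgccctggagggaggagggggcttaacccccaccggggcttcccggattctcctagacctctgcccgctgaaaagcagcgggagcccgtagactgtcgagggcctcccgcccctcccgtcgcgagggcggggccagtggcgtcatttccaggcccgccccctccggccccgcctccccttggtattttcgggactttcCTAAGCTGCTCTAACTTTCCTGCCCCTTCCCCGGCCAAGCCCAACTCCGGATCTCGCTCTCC
NFKBIA, chr14:35404700-35404999, minus strand: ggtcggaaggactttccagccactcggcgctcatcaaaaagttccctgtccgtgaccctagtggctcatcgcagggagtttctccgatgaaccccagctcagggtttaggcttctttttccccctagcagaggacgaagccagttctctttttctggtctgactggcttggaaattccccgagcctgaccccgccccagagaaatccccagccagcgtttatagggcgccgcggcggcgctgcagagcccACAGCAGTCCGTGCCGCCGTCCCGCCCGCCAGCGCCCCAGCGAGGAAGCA
NFKBIB, start 2 of 2, chr19:38899719-38900018, plus strand: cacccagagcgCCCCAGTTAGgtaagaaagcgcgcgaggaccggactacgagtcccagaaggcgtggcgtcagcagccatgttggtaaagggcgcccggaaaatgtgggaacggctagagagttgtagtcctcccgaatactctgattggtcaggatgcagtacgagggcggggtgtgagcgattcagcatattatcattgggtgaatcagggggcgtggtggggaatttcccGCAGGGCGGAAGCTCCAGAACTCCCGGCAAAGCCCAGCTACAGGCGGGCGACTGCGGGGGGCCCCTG
BCL3, chr19:44748458-44748757, plus strand: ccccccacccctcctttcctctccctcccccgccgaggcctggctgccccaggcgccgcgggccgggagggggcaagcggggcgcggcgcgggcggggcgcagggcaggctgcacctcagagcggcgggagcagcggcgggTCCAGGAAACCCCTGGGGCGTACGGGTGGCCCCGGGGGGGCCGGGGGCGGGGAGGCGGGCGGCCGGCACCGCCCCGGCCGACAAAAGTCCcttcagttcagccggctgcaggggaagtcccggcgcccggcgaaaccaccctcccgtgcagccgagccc
In the NFKB2 window 62 bases were under a peak in the shALKBH5 list and the same number in the shNC list, and in the NFKBIA window 50 bases were covered in both. The NFKBIB window had 77 bases and the BCL3 window 90 bases under an shALKBH5 peak, and both had 0 under an shNC peak. GGAC, the core of the m6A consensus, occurred on the gene's strand in 0 places inside the capitals of these 4 windows. The capitals hold 62 of the 240 bases of the NFKB2 peak, 50 of 149 for NFKBIA and 77 of 120 for NFKBIB. Bases of these peaks outside the windows were not searched. The BCL3 peak lies wholly inside its window. Over the whole windows, GGAC stood on the gene's strand in 10 of the 14 windows of the members and in 66.3% of all 35116 promoter windows. On either strand it stood in 14 of 14 and in 87.4%. Of each window, 250 bases lie before its start site and 50 after, so these counts show no m6A in the RNA.

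The same windows were searched on both strands for the NF-κB consensus, the decamer that NF-κB dimers bind, and overlapping matches were kept. Of the 8 members with a promoter window, 7 held a match, against 13.3% of all 27305 genes in the promoter table. The exception was RELA. NFKB1 carried GGGAATTTCC beginning 49 bases before its first start, and REL carried GGGAAATTCC 47 bases before its start. NFKBIA had GGGAATTTCC on the opposite strand, whose leftmost base lies 81 bases before the start, and NFKBIB had GGGAATTTCC 28 bases before its second start. The last of the 3 NFKB2 starts had GGGACTTTCC 21 bases upstream, and the last base of this match is the first base of the peak block in capitals. In NFKBIZ the match GGGAATTTCC began 223 bases before the first start, and in BCL3 GGGAAGTCCC began 2 bases after the start. A match is a match of letters and shows no binding.

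All subunit genes but RELB had peaks in both lists. NFKB1 (ENSG00000109320, chromosome 4, span 102501359 to 102617302, plus strand) had a single peak in each list, 569 bp from the gene end for shALKBH5 and 599 bp for shNC. It covered 102616494 to 102616733 with a fold of 2.96 at a log10 p of -50.2 in the shALKBH5 list, and 102616524 to 102616703 with a fold of 2.11 at a log10 p of -24.3 in the shNC list. The shALKBH5 peak thus extended 30 bases further at each edge, and its values were the higher in fold and the stronger in p. By fold the NFKB1 peak ranked low, within the top 80.5% of the shALKBH5 list and the top 91.2% of the shNC list, while by p it ranked within the top 26.3% and the top 41%.

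NFKB2 (ENSG00000077150, chromosome 10, span 102394110 to 102402529, plus strand) had 2 peaks in each list, none of them at the gene end. The first had 2 blocks. They lay at 102394648 to 102394774 and 102395693 to 102395805 for shALKBH5, and at 102394708 to 102394774 and 102395693 to 102395775 for shNC. The inner block borders were identical in both lists. Its fold was 10.9 with a log10 p of -6.15 for shALKBH5, and 14.3 with a log10 p of -3.5 for shNC. This peak began 538 bp past the start of the gene span in the shALKBH5 list, just outside the 500 bp limit, and 70 bp after the second of the 3 NFKB2 start sites. The other NFKB2 peak, in mid-gene, had the same borders in both lists, 102398789 to 102398968, with a fold of 7.01 at a log10 p of -15.9 for shALKBH5 against 8.41 and -11.3 for shNC. It was the only 1 of the 12 member pairs matched peak to peak whose blocks were identical, while 15.1% of all 14577 such pairs were.

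RELA (ENSG00000173039, chromosome 11, span 65653601 to 65663857, minus strand) encodes p65, the main activating subunit of the canonical pathway. It had 3 peaks in the shALKBH5 list and 4 in the shNC list, and the middle peak of the shared 3 was the strongest member peak by p in the shALKBH5 list. That peak lay at 65654223 to 65654611 with a fold of 6.61 at a log10 p of -388 for shALKBH5, and at 65654253 to 65654611 with a fold of 4.31 at a log10 p of -233 for shNC. Toward the gene end from it, the peak at 65653596 to 65653745 had a fold of 2.64 at a log10 p of -16.6 for shALKBH5, and that at 65653596 to 65653775 had 4.08 and -48.9 for shNC. On the other side, the peak at 65655298 to 65655417 had a fold of 10.9 at a log10 p of -2.53 for shALKBH5, and that at 65655208 to 65655417 had 17.8 and -4.52 for shNC. So the RELA peaks differed in direction within the gene, with the higher fold in the shALKBH5 list at 1 site and in the shNC list at the other 2. Fold and strength were also far apart: the RELA peaks with the highest folds had the weakest p of the shared 3 in each list.

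A further RELA peak, at 65660357 to 65660626 and 3231 bp past the gene start, was listed only for shNC, with a fold of 15.2 at a log10 p of -5.98. The nearest shALKBH5 peak was another RELA peak 4939 bp away. RELB (ENSG00000104856, chromosome 19, span 45001464 to 45038192, plus strand), the usual partner of p52 in the non-canonical pathway, was the only member with peaks in 1 list alone. Its single peak was an shNC peak of 90 bases at 45037871 to 45037960, 232 bp from the gene end, with a fold of 2.3 at a log10 p of -5.21. Of all genes of the shNC list, 6.22% had no peak in the shALKBH5 list. By p the RELB peak stood within the top 78.9% of the shNC list.

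REL (ENSG00000162924, chromosome 2, span 60881574 to 60931612, plus strand) encodes c-Rel, a subunit used mainly by lymphoid cells. Its main peak lay at 60922071 to 60922371 with a fold of 7.09 at a log10 p of -22.5 for shALKBH5, and at 60922071 to 60922401 with a fold of 11.9 at a log10 p of -27.8 for shNC. A second REL peak, at 60922431 to 60922611, was listed only for shALKBH5, with a fold of 6.33 at a log10 p of -4.5. Only 29 bases separate it from the shNC peak, so it adjoins a shared site and does not stand alone. The last REL peak, at 60928010 to 60928220 with a fold of 4.14 at a log10 p of -5.59 for shALKBH5 and at 60928010 to 60928190 with 4.55 and -6.33 for shNC, also overlapped a peak named AC010733.2 in both lists. Reads of these 2 genes on the same strand cannot be separated.

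**Figure D1:**
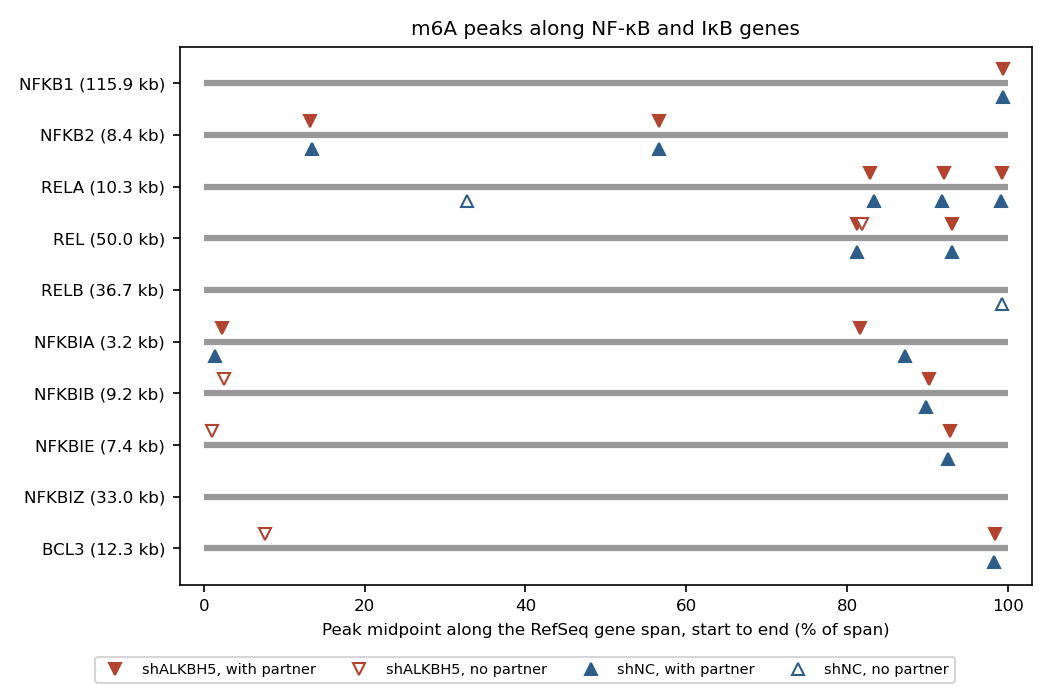
Positions of the member peaks, with the midpoint of each peak in percent of the RefSeq gene span on the x axis and 1 gene per row (span length in brackets). Triangles above a gene are shALKBH5 peaks, those below are shNC peaks, and open ones have no partner. The 4 open shALKBH5 triangles are at REL, NFKBIB, NFKBIE and BCL3, the last 3 of them in the first 10% of their gene, and the 2 open shNC triangles are at RELA and RELB.

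Of the IκB genes, NFKBIA, NFKBIB, NFKBIE and BCL3 each had 1 shared peak at the gene end, and NFKBIZ had no peak. NFKBIA (ENSG00000100906, chromosome 14, span 35401513 to 35404749, minus strand) encodes IκBα, the inhibitor that resets the pathway after a stimulus. Its end peak ended at the same base, 35401808, in both lists. In the shALKBH5 list it had 2 blocks, at 35401808 to 35402060 and 35402394 to 35402407. Its fold there was 2.36 at a log10 p of -27. In the shNC list it stayed in 1 block to 35402045, with a fold of 2.59 at a log10 p of -29.7. NFKBIA also had a start peak in both lists, and both began exactly at the RefSeq start. This start peak was 149 bases long with a fold of 2.54 at a log10 p of -15.1 for shALKBH5, and 90 bases long with a fold of 1.46 at a log10 p of -3.62 for shNC. With 1 library pair per condition, it cannot be said whether this contrast exceeds the spread between cultures.

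NFKBIB (ENSG00000104825, chromosome 19, span 38899666 to 38908889, plus strand) encodes IκBβ. Its end peak was 448 bases long in both lists and shifted by 30 bases, from 38907761 to 38908208 with a fold of 8.9 at a log10 p of -12.1 for shALKBH5, and from 38907731 to 38908178 with a fold of 8.28 at a log10 p of -23.8 for shNC. The folds were close, and the p was the weaker with shALKBH5. A start peak was listed only for shALKBH5, with blocks at 38899730 to 38899739 and 38899952 to 38900061, a fold of 9.05 at a log10 p of -5.47. The nearest shNC peak was 76 bases away and belonged to SIRT2, which lies on the opposite strand, at 38899533 to 38899653 with a fold of 5.35 at a log10 p of -3.56. Strandedness of the libraries was not given in the sources used here.

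NFKBIE (ENSG00000146232, chromosome 6, span 44258166 to 44265551, minus strand) encodes IκBε, and its end peak was the strongest member peak by p in the shNC list. It spanned 653 bases at 44258374 to 44259026 with a fold of 13.4 at a log10 p of -332 for shALKBH5, and 742 bases at 44258344 to 44259085 with a fold of 10.9 at a log10 p of -283 for shNC. These were the widest member peaks in each list, within the top 4.28% by p for shALKBH5 and the top 5.81% for shNC. A peak of 150 bases starting exactly at the RefSeq start, 44265402 to 44265551, was listed only for shALKBH5, with a fold of 1.74 at a log10 p of -5.27. Its fold was the lowest of the 17 member peaks of that list, and the nearest shNC peak lay 6316 bases away.

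BCL3 (ENSG00000069399, chromosome 19, span 44747705 to 44760044, plus strand) encodes a nuclear IκB protein that binds p50 and p52 dimers and can activate transcription with them. Its end peak was 209 bases long, at 44759747 to 44759955, with a fold of 3.45 at a log10 p of -13.1 for shALKBH5, and 120 bases long, at 44759776 to 44759895, with a fold of 2.31 at a log10 p of -4.75 for shNC. A second peak, of 90 bases at 44748599 to 44748688, was listed only for shALKBH5, with a fold of 12.7 at a log10 p of -3.12. It lay 894 bp past the start of the gene span but ended 20 bases before the RefSeq start site of the promoter window printed above. High fold and weak p met here too, within the top 23.1% of the list by fold and the top 94.6% by p.

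NFKBIZ (chromosome 3, span 101827990 to 101861022) encodes IκBζ, a nuclear IκB protein induced by inflammatory signals, and had 0 peaks in either list. NFKBID, a further nuclear IκB gene outside the 10 members, also had 0. A transcript without enough RNA for a call and a transcript without m6A cannot be told apart here, since the lists hold neither RNA levels nor depth.

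**Figure D2:**
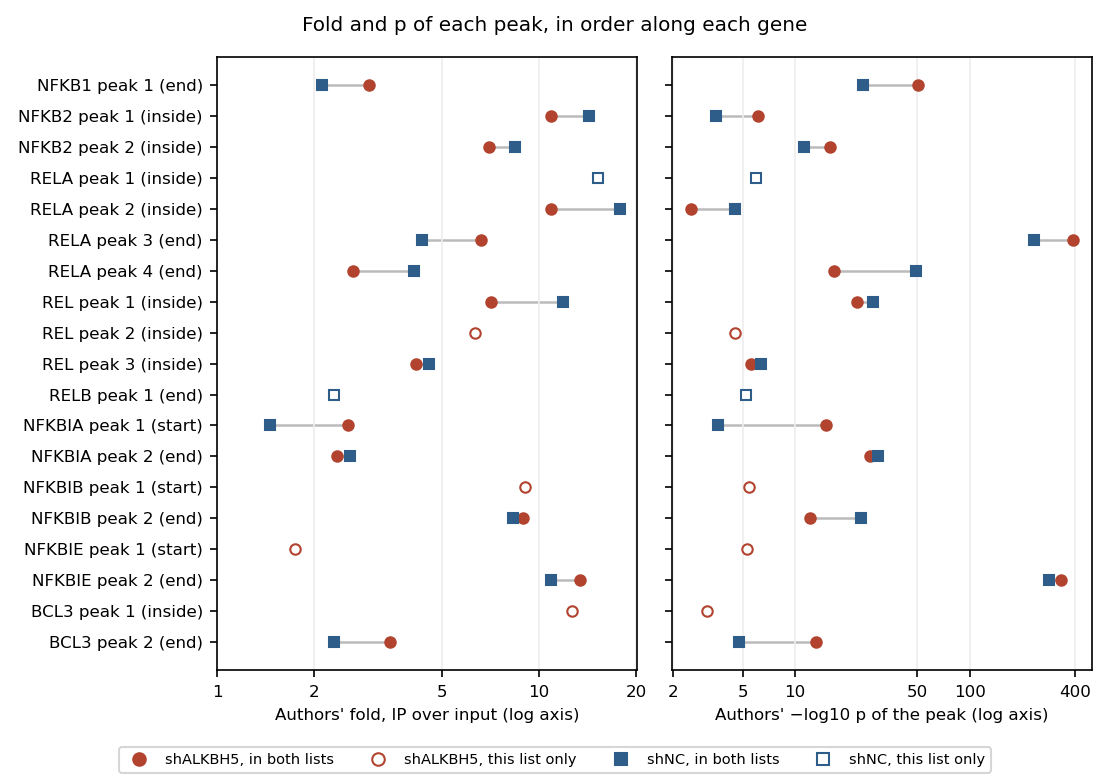
The authors' fold (left, log axis) and −log10 p (right, log axis) of each of the 19 peak positions of the members, numbered from the gene start and with their place in the gene. Circles are shALKBH5 and squares shNC peaks, grey lines join partners, and open symbols are peaks of 1 list only. The lone peaks lie between 3.12 and 5.98 on the −log10 p axis, whatever their fold, and RELA peak 3 and NFKBIE peak 2 stand furthest to the right.

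Counted together, the members had 19 peak positions, 13 in both lists, 4 in the shALKBH5 list alone and 2 in the shNC list alone. Without a partner were 4 of 17 shALKBH5 peaks (23.5%, exact 95% binomial interval 6.81 to 49.9%) and 2 of 15 shNC peaks (13.3%, 1.66 to 40.5%). Over the whole lists, 19.8% of shALKBH5 peaks and 12.6% of shNC peaks had none, so the members' shares were near the background. The intervals are wide and take peaks of the same gene as independent, so they cannot show that the shares are equal. By role, the lone shALKBH5 peaks were 1 in a subunit gene and 3 in inhibitor genes, and both lone shNC peaks were in subunit genes. This division rests on 6 peaks and was not tested. The lone peaks had a median log10 p of -4.88 for shALKBH5 and -5.6 for shNC, beside -4.32 and -4.21 for all peaks without a partner, and -15.9 and -23.8 for the member peaks with one.

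By gene, 8 of 10 members had peaks in both lists, 0 in the shALKBH5 list alone, 1 in the shNC list alone and 1 in neither. Of all 12792 genes with any peak, 83% were in both lists. The matching count leaves out NFKBIZ and is 8 of the 9 members with a peak. Of the genes of the shALKBH5 list, 12.2% were absent from the shNC list. Members had up to 3 peaks in the shALKBH5 list and up to 4 in the shNC list. The highest number for any gene was 19 in the shALKBH5 list and 18 in the shNC list, and the median was 2 in each. Among the 12 member pairs matched peak to peak, 6 were wider, 4 narrower and 2 equally wide in the shALKBH5 list. Over all such pairs, 40.1% were wider and 37.9% narrower with shALKBH5.

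Gene ends held 7 of 17 shALKBH5 member peaks (41.2%, 18.4 to 67.1%) and 8 of 15 shNC member peaks (53.3%, 26.6 to 78.7%). Of all peaks placed on a RefSeq gene, 22.1% of the shALKBH5 list and 23% of the shNC list lay there. Shared end peaks were found in 6 genes, and the remaining end peak was the shNC peak of RELB. Peaks of 2 or more blocks numbered 3 of 17 for shALKBH5 and 1 of 15 for shNC, where the whole lists had 17.9% and 17.4%. Gene starts held 3 shALKBH5 member peaks, at NFKBIA, NFKBIB and NFKBIE, and 1 shNC member peak, at NFKBIA. All were in inhibitor genes, and the background was 14.5% of placed shALKBH5 peaks and 11.4% of placed shNC peaks. Of the lone member peaks, 2 shALKBH5 peaks and 0 shNC peaks were at a start by this rule, where 27.1% of all placed lone shALKBH5 peaks and 12.7% of all placed lone shNC peaks were. When any RefSeq start site of the promoter table was accepted within 500 bp on either side, NFKB2 and BCL3 joined, so that 5 of the 17 shALKBH5 peaks and 2 of the 15 shNC peaks were start peaks. Under that wider rule, 16.9% of all placed shALKBH5 peaks and 13.5% of all placed shNC peaks were start peaks.

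**Figure D3:**
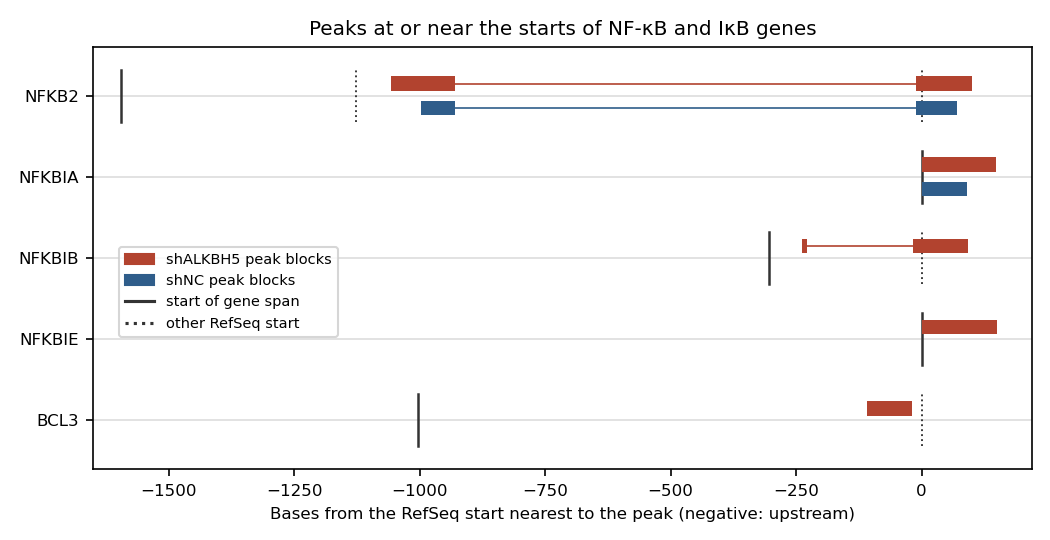
Peak blocks at or near the starts of 5 members, drawn to scale in bases from the RefSeq start site nearest to the peak (x axis, negative upstream), with thin lines joining the blocks of a peak. Upper blocks are shALKBH5 and lower blocks shNC, solid ticks mark the start of the gene span and dotted ticks other RefSeq starts. NFKBIA and NFKBIE peaks begin at position 0, the BCL3 peak ends 20 bases before its start, and NFKBIB, NFKBIE and BCL3 have no shNC block.

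By strength, 2 of 17 shALKBH5 and 2 of 15 shNC member peaks stood in the strongest 25% of their list by p, at RELA and NFKBIE in each. In the top 10% by fold there were 0 members in either list. The median member fold was 6.61 for shALKBH5 and 4.55 for shNC, beside 6.64 and 6.54 over all peaks. Member peaks were also shorter at the median, with 209 and 181 bases beside 269 and 270 bases over the lists. Some member values were shared by many other peaks of their list. The RELA peak with a fold of 10.9 at a log10 p of -2.53 had the same fold and p as 130 shALKBH5 peaks, itself included. The corresponding shNC peak, with 17.8 and -4.52, matched 81 shNC peaks, and the first NFKB2 peak for shNC, with 14.3 and -3.5, matched 132. The p of the strongest RELA and NFKBIE peaks belonged to no other peak of the same fold.

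**Figure D4:**
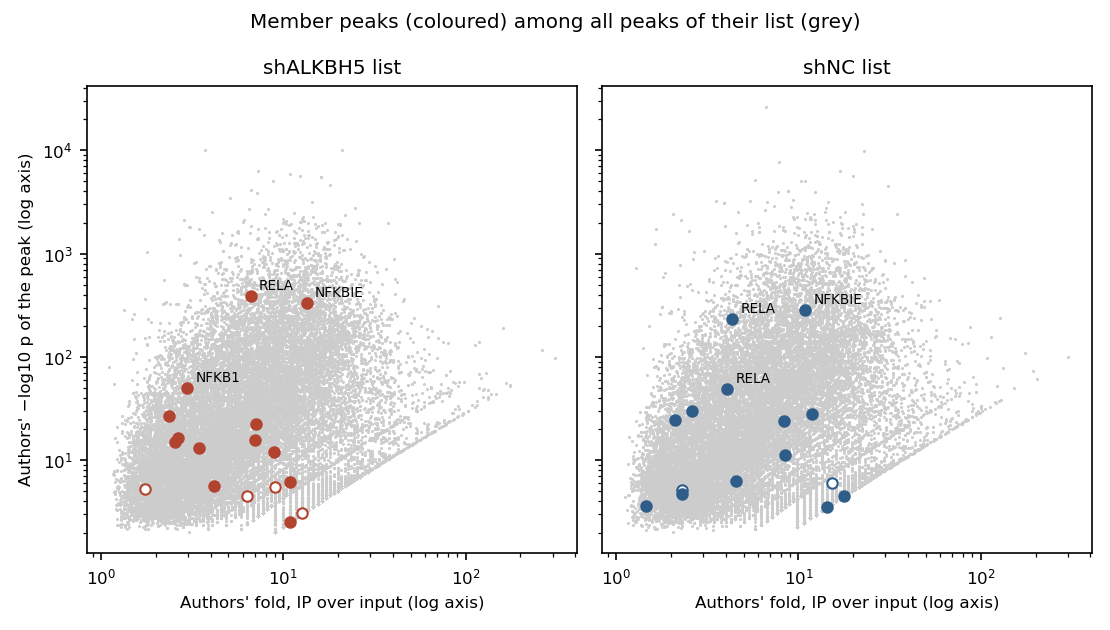
The authors' fold (x axis, log) against −log10 p (y axis, log) for all peaks of the shALKBH5 list (left) and the shNC list (right) in grey, with member peaks coloured and open where they have no partner. Names mark member peaks above 45 on the y axis. The member peaks without a name lie below 30 on the y axis in both lists, and the open ones below 6.

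The rest of the pathway was read from lists of other genes. Both lists held peaks of 17 of the 20 upstream kinases, adaptors and brakes, and neither held any of the IκB kinase CHUK. The 2 genes found with shALKBH5 alone were IKBKG, the regulatory subunit of the IκB kinase, with a fold of 9.05 at a log10 p of -10, and TRAF3, a brake on the non-canonical pathway, with a start peak of fold 4.41 and log10 p -8.26. Of all genes of the shALKBH5 list, 12.2% had no peak in the shNC list. Reads of IKBKG are uncertain, since a pseudogene nearly identical to it exists. BIRC3, a ubiquitin ligase that NF-κB induces, had the strongest upstream peak by p for shALKBH5, with a fold of 11.5 at a log10 p of -443, beside 8.18 and -186 for shNC. For shNC it was TRAF5, with 18.8 and -353, beside 19.3 and -341 for shALKBH5. Of 45 upstream peaks in the shALKBH5 list 6 had no partner (13.3%), and of 36 in the shNC list 1 had none (2.78%). Over the whole lists, 19.8% of shALKBH5 peaks and 12.6% of shNC peaks had none. The median log10 p of the upstream peaks was -58.4 for shALKBH5 and -53.6 for shNC, against -13.1 and -11.3 for the members.

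Of 15 ligands and receptors, 7 had peaks in both lists, 7 in neither, and TNFSF13, the ligand APRIL, only in the shNC list, with a fold of 2.89 at a log10 p of -8.19. TNFRSF1B, a tumour necrosis factor receptor, led this list by p, with a fold of 13.2 at log10 p -631 for shALKBH5 and of 13 at log10 p -668 for shNC. Of 22 usual NF-κB target genes, 13 had peaks in both lists and 8 in neither. BCL2A1, an anti-apoptotic BCL2 relative, stood in the shALKBH5 list alone with 2 start peaks, of fold 14.5 and log10 p -3.54 and of fold 10.9 and log10 p -2.65. Other shALKBH5 peaks had the same fold and p, such as peaks of NHLH1 for the former and ARID1A for the latter. Over the whole lists, 12.2% of shALKBH5 genes and 6.22% of shNC genes had peaks in that list alone. The adhesion molecule gene ICAM1 led the targets, with a fold of 10.8 at a log10 p of -1900 for shALKBH5 and 12.1 and -2400 for shNC. The target list shares BIRC3, TRAF1, TNFAIP3 and TNIP1 with the upstream list.

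Among cell type markers, 7 of 10 plasma cell and myeloma markers had peaks in both lists, and TNFRSF17, SLAMF7 and JCHAIN had none. SDC1 led them, with a log10 p of -862 for shALKBH5 and -753 for shNC. Of 6 T and NK cell markers 0 had any peak. Of 6 myeloid markers ITGAM and CD68 had peaks in both lists, and of 6 stromal markers PDGFRB and VIM had weak shNC peaks. The lists hold no RNA levels, so these counts are no check of cell identity. ALKBH5 itself had 3 peaks in each list, all with partners, and these ratios within a condition hold no expression level, so the knockdown was not checked here.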

How the data were processed

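Poly(A) RNA of RPMI-8226 cells was made into 1 IP and 1 input library per condition, per the labels' protocols. Tools named in the submitters' processing notes, with neither role nor order, are HOMER 4.9.1, BWA 0.7.12 and fastp 0.19.11, and the build is hg38. The peak caller was not given in the sources used here, nor was the scaling of IP to input. Per the file headers, the authors deposited for each peak a fold enrichment (ratio of IP over input), a p-value, and log10 p and log10 FDR columns, read here as scores with no fixed range. A low fold with many reads can have a stronger p than a high fold with few. Read counts are not in these lists, so depth is unknown, and intervals cover counting error only.

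The file starts count from 0, and 1 was added. Peaks were placed on RefSeq genes of GRCh38.p14 by symbol (88.2% of shALKBH5 and 88.4% of shNC peaks). Promoter sequences are RefSeq's. RELB and NFKBIE were not matched there. Work was done in Python 3.11.15 with SciPy 1.17.1 and matplotlib 3.10.9, and partner calls were tested on simulated data (100% of 2000 right). No test between conditions was possible, and folds are given side by side. The members and lists were chosen with earlier results of these data known, and the NF-κB consensus search and the use of every RefSeq start site were added after the data were seen. The text names all 10 members, and list genes with peaks in 1 list alone or leading by p. Alternatives were a stricter fold, lists of equal length, RefSeq spans, reciprocal overlap, a 200 bp window, the same strand, merging within 100 bp and a stricter start. GGAC could be counted only inside promoter windows, since a genome sequence was not used here.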

Additional observations from a re-analysis of the deposited data

How the results depend on the processing

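Of the recomputed counts over the members, 31 stayed within 1.5 times of the value as deposited, and 4 moved. With a window of 200 bp, the shALKBH5 member peaks without a partner fell to 2 (BCL3 and NFKBIE), against 4, since REL and NFKBIB had an shNC peak nearby. The whole-list share was then 17.6%. With folds of at least 2 times the lowest of each list, NFKB1 stood in the shALKBH5 list only, giving 1 such member against 0, because its shNC fold lies under that limit. The lone shALKBH5 peaks then numbered 5, at BCL3, NFKB1, NFKBIA, NFKBIB and REL: the NFKBIE start peak was itself under the limit, and the NFKBIA start peak lost its shNC partner. Whole-list shares without a partner were then 21.5% for shALKBH5 and 13.8% for shNC. Accepting any RefSeq start site gave 5 start peaks for shALKBH5 and 2 for shNC, against 3 and 1, with 16.9% and 13.5% of all placed peaks under the same rule, against 14.5% and 11.4%. RELB stayed in the shNC list alone under all 3 alternatives that could change this. With lists of equal length, BCL3 lost its lone peak and the second RELA peak lost its shALKBH5 partner, giving 3 lone peaks in each list, where 15.1% of all peaks of each list had no partner. No paired analysis was possible because there is 1 library of each kind per condition and no test. Depth is unknown, and the lone peaks have log10 p from -3.12 to -5.98 only.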
